A study of Mus musculus with 5 samples.

Results

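The subject is the core machinery that makes microRNAs and loads them into silencing complexes, 10 genes chosen by symbol: Drosha, Dgcr8, Xpo5, Dicer1, Tarbp2, Prkra, Ago1, Ago2, Ago3 and Ago4. They hold 11 of the 53927 rows of the table, because Dgcr8 is listed under 2 identifiers, 1 of which (ENSMUSG00000106687.4) is at 0 in every library and was set aside. All 10 genes passed the filter on low values. RNA was sequenced from primary nephron progenitor cells, the kidney precursors that give rise to nephrons, isolated from C57BL/6J mouse embryos and collected after 1 passage. There were 2 libraries from Dis3l2+/+ embryos (WT) and 3 from Dis3l2-/- embryos (KO). The sources used here do not give the age of the embryos, the part of Dis3l2 that was removed or whether each library came from its own embryo, so the spread between libraries may be partly technical. Total RNA libraries were stranded and read from a single end.

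MicroRNAs are cut from long primary transcripts in a fixed order. In the nucleus the Microprocessor, made of the RNase III enzyme Drosha and its RNA-binding partner Dgcr8, releases a hairpin precursor, and exportin 5 (Xpo5) carries it to the cytoplasm. There Dicer (Dicer1), helped by the double-stranded RNA binding proteins TRBP (Tarbp2) and PACT (Prkra), trims it to a duplex, from which an Argonaute protein (Ago1 to Ago4) keeps a single guide strand. Ago2 is the Argonaute known for cutting its target. Dis3l2 is a cytoplasmic 3'-to-5' exonuclease that degrades uridylated RNA, including let-7 precursors tailed by the Lin28 pathway. Several genes of the machinery, Drosha, Dgcr8 and Dicer1 among them, are mutated in Wilms tumour, to which loss of Dis3l2 also predisposes.

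Levels are in CPM scaled to each library's effective size by the authors. Depth, found from the value of a single read in each library, ran from 19.6 M to 49.3 M assigned reads, deepest in KO replicate 1 and shallowest in KO replicate 3. The 10 genes had between 130 and 4789 reads in a library. The targeted gene Dis3l2 had 16.0 and 12.2 CPM in the WT libraries, against 6.50, 4.93 and 4.70 in KO, a log2 difference of -1.24 (standard error 0.21), short of the threshold when adjusted over all genes (adjusted p = 0.9545, limma). For Dis3l2 the authors' deposited table lists -1.38 on the log2 scale with an FDR of 0.00855. Of 12 nephron progenitor markers 11 passed the filter, among them Six2, with 18.6 to 31.9 CPM over the 5 libraries, and Eya1, with 168 to 274. Pax2, at most 0.66 CPM, did not pass. Renal stroma markers summed to 369 and 843 CPM in the WT libraries, against 439, 802 and 543 in KO, with the stromal Foxd1 at most 0.25 CPM. Most of that sum was Col1a1 (227 and 650 CPM in WT, 284, 656 and 402 in KO), while Meis1 was highest in KO replicate 1, at 86.8 CPM, and lowest in WT replicate 2, at 35.8. Of 4 leukocyte markers Cd68 (1.79 to 3.15 CPM) and Csf1r (0.65 to 1.74 CPM) passed the filter, while the defining Ptprc, at most 0.11 CPM, and Adgre1 did not. Xist stood under 1 CPM in 2 libraries (WT replicate 1, KO replicate 3) and at 765 or more in the other 3, so both sexes occurred in each genotype. Bulk levels cannot tell fewer cells of a type from less RNA per cell.

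None of the 10 genes differed between genotypes by the test, which sets the difference against the spread between libraries. Of them, 4 had a higher and 6 a lower fitted level in KO, the log2 differences ran from -0.15 to 0.15 and their median was -0.02. Over all 14884 genes tested the median was 0.01 and 52.9% lay above 0. No member passed the threshold (adjusted p = 1.0 for each, limma with Benjamini-Hochberg adjustment), and 0.00672% of all genes did, a single gene. At an unadjusted p under 0.05 there were 0 members, against 2.77% of all genes, and the smallest unadjusted p of a member was 0.327. Gene by gene, an exact two-sided permutation test gave p from 0.2 to 0.9, where 0.1 is the smallest it can give. The 10 genes had log2 fold changes from -0.16 to 0.20 in the authors' deposited table, each with an FDR of 1.0, while 0.0315% of its rows had an FDR under 0.05. The 95% interval of each difference held 0 and lay within a 2-fold change in either direction. The lowest bound, for Dgcr8, corresponded to a change of -28.4% in CPM + 1 in KO. The highest, for Tarbp2, corresponded to one of 55.7%, so these data cannot tell differences inside such bounds from 0. Fitted differences are those of log2(CPM + 1), a scale that shrinks the differences of low genes. A p that misses the threshold does not show that the genotypes are equal.

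**Figure D1:**
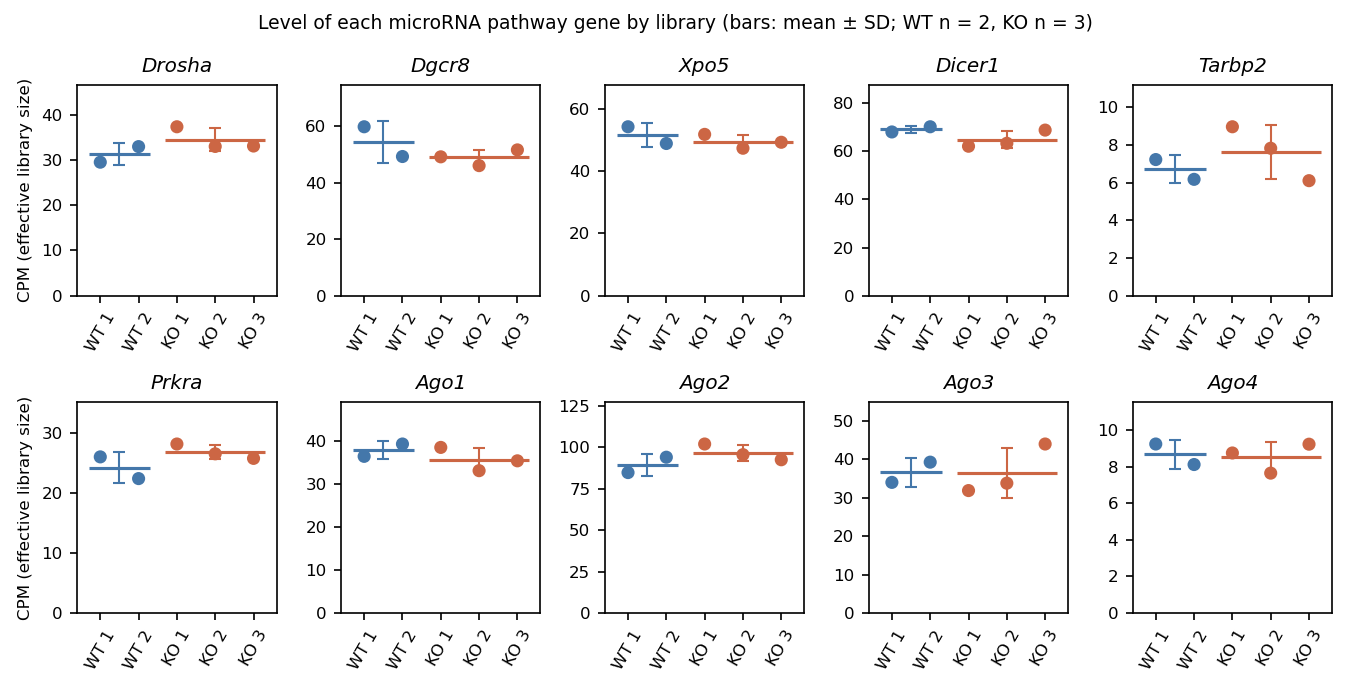
Level of each of the 10 genes in CPM of the effective library size (vertical axis from 0, own scale for each gene) in the 2 WT (blue) and 3 KO (orange) libraries; lines and bars give the mean ± SD. In 9 of the 10 panels the KO points overlap the WT points, and Drosha is the exception, with 32.97 as its lowest KO value and 32.93 as its highest WT value.

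Of the Microprocessor pair, Drosha had a higher and Dgcr8 a lower mean in KO, both by less than their intervals allow to be told from 0. Drosha (ENSMUSG00000022191.16; chromosome 15, 12824815 to 12935291, plus strand, GRCm38) had 29.49 and 32.93 CPM in the WT libraries, against 37.31, 32.97 and 33.06 in KO. The mean was 31.2 ± 2.43 CPM in WT (SD, n = 2) and 34.4 ± 2.48 CPM in KO (SD, n = 3). KO replicate 1 was the highest library, while KO replicates 2 and 3 lay just above WT replicate 2. It was the 1 member of 10 whose genotypes did not overlap, lying above WT as 7.85% of all genes tested did, while 6.98% lay below and 14.8% did not overlap in either direction. The log2 difference was 0.14 (standard error 0.14), with a 95% interval from -0.19 to 0.46 (limma). In terms of CPM + 1 that interval runs from a change of -12.1% to one of 37.7%.

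Dgcr8 (ENSMUSG00000022718.11; chromosome 16, 18253948 to 18289246, minus strand) showed 59.77 and 49.25 CPM in the WT libraries, against 49.14, 46.03 and 51.59 in KO. WT replicate 1 stood above the other 4 libraries, and KO replicate 3 lay above WT replicate 2, so the genotypes overlapped. The log2 difference was -0.15 (standard error 0.14), with an interval from -0.48 to 0.19 (limma), and it was -0.01 without WT replicate 1. The enzyme and its partner are also known to act on each other, since the Microprocessor cuts hairpins in the Dgcr8 transcript itself. The ratio of Dgcr8 to Drosha in CPM, chosen after the values had been seen, was 2.03 and 1.496 in WT and 1.32, 1.40 and 1.56 in KO. KO replicate 3 exceeded WT replicate 2, and the ratio did not differ by an exact two-sided permutation test (p = 0.3, where 2 against 3 libraries cannot go below 0.1). Over the 7 ratios and shares compared in this way the adjusted value was 0.7. Without WT replicate 1 the difference in the mean ratio, -0.34 with all libraries, was -0.07.

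One such hairpin is annotated as its own microRNA gene, Mir1306 (chromosome 16, 18284239 to 18284317, minus strand, GRCm38.p6), inside an exon of Dgcr8 that is coding in 2 transcripts. It is shown because it is a Microprocessor substrate that lies within a member of the set. The sequence is RefSeq's, 5' to 3', with the mature arms in capitals.
Mir1306 hairpin: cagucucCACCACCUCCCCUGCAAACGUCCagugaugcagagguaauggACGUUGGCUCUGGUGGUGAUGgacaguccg
The Mir1306 row was listed at 0 in all 5 libraries. Its whole length lies on Dgcr8 exon sequence, and how the authors' counting treated reads that fall on both genes is not stated in any source used here, so this 0 says nothing about cutting at the hairpin. Dgcr8 also shares 825 bases of exon with Trmt2a on the opposite strand and 494 with other models on its own strand, so part of its reads is uncertain.

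Xpo5, the export receptor for precursor hairpins, varied little between libraries. Xpo5 (ENSMUSG00000067150.5; chromosome 17, 46202782 to 46243598, plus strand) had 54.16 and 48.80 CPM in the WT libraries, against 51.72, 47.28 and 49.19 in KO. The 5 libraries differed by at most 1.15-fold and the genotypes overlapped. The log2 difference was -0.06 with an interval from -0.36 to 0.24 (limma). None of the 50-base windows of its transcripts, the length of a read, occurs in a transcript of another gene.

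Within the Dicer complex, Dicer1 had a lower and both of its partners a higher mean in KO, each with an interval that held 0. Dicer1 (ENSMUSG00000041415.10; chromosome 12, 104687742 to 104751952, minus strand), the enzyme that trims the precursor, had 67.89 and 70.04 CPM in the WT libraries, against 61.97, 63.19 and 68.66 in KO. KO replicates 1 and 2 lay below both WT libraries and KO replicate 3 lay between them. The mean was 69.0 ± 1.52 CPM in WT (SD, n = 2) and 64.6 ± 3.56 CPM in KO (SD, n = 3), and its log2 difference was -0.09 with an interval from -0.38 to 0.19 (limma). Its 5 libraries differed by at most 1.13-fold, the smallest range of the 10 genes.

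Tarbp2 (ENSMUSG00000023051.10; chromosome 15, 102518192 to 102523676, plus strand), which encodes the Dicer partner TRBP, had 7.23 and 6.18 CPM in the WT libraries, against 8.97, 7.83 and 6.11 in KO. KO replicate 1 was the highest and KO replicate 3 the lowest of all 5 libraries, so the range within KO enclosed both WT values. The log2 difference was 0.15 (standard error 0.20), with an interval from -0.33 to 0.64 (limma). Tarbp2 had the fewest reads of the 10 genes, 130 to 421 in a library, and its spread over the 5 libraries, a coefficient of variation of 16.5%, exceeded the largest counting error of 8.77%. Of its 50-base windows 14.3% also occur in transcripts of the gene models Gm18584 and Gm18561, so its reads may be shared or dropped. Without KO replicate 3 the log2 difference was 0.29 and without KO replicate 1 it was 0.04.

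Prkra (ENSMUSG00000002731.6; chromosome 2, 76629898 to 76648015, minus strand) encodes PACT, which binds Dicer and also activates the kinase PKR. It had 25.97 and 22.36 CPM in the WT libraries, against 28.11, 26.48 and 25.72 in KO. WT replicate 2 was the lowest library, and KO replicate 3 lay just under WT replicate 1. The log2 difference was 0.14 with an interval from -0.19 to 0.48 (limma). The ratio of Tarbp2 to Prkra in CPM was 0.278 and 0.276 in WT and 0.319, 0.296 and 0.238 in KO, so that KO libraries lay on both sides of the closely spaced WT values (p = 0.9, exact two-sided permutation test).

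**Figure D2:**
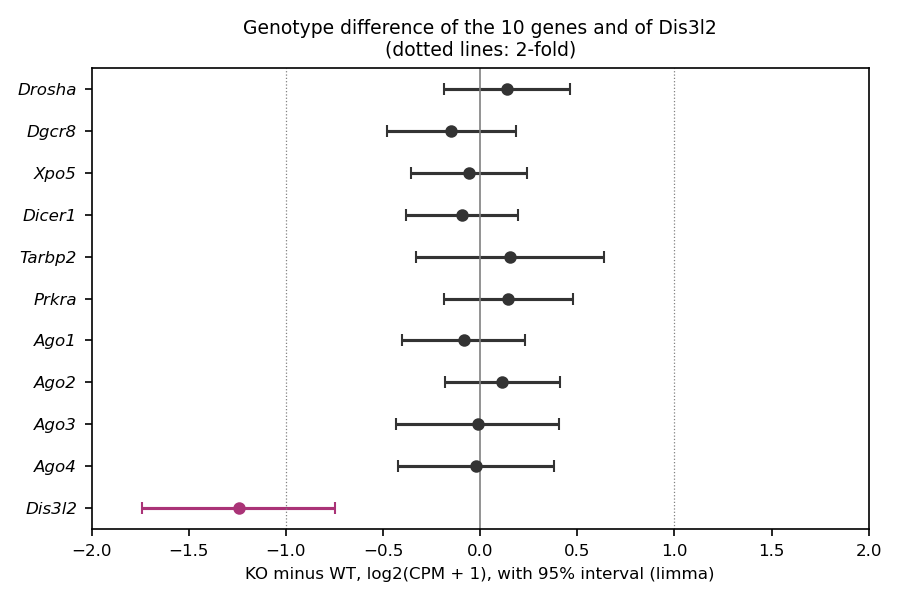
Difference between KO and WT on the log2(CPM + 1) scale for each of the 10 genes and, for comparison, the targeted gene Dis3l2; points are the fitted difference and bars its 95% interval (limma, 2 WT and 3 KO libraries). The bars of the 10 genes all cross 0 and end inside the dotted 2-fold lines, while that of Dis3l2 runs from -1.74 to -0.75.

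The 4 Argonaute genes were all measured, and their summed level overlapped between genotypes. Ago1 (ENSMUSG00000041530.16; 126435012 to 126468583), Ago3 (ENSMUSG00000028842.15; 126331704 to 126429556) and Ago4 (ENSMUSG00000042500.11; 126489541 to 126533472) lie side by side on the minus strand of chromosome 4. The gap between Ago3 and Ago1 is 5455 bases and that between Ago1 and Ago4 is 20957 bases. Ago2 (ENSMUSG00000036698.10; chromosome 15, 73095844 to 73184935, minus strand) stands alone.

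Ago2 had 84.81 and 94.08 CPM in the WT libraries, against 102.05, 95.62 and 92.55 in KO. KO replicate 1 was the highest library and WT replicate 1 the lowest, and KO replicate 3 lay between the WT libraries. With up to 4789 reads in a library Ago2 had the smallest counting error of the set. Its log2 difference was 0.11 with an interval from -0.18 to 0.41 (limma), that is from a change of -11.9% to one of 32.8% in CPM + 1.

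Ago1 had 36.45 and 39.32 CPM in the WT libraries, against 38.53, 33.12 and 35.41 in KO. KO replicates 2 and 3 lay below both WT libraries and KO replicate 1 lay between them. The log2 difference was -0.09 with an interval from -0.40 to 0.23 (limma).

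Ago3 had 33.99 and 39.25 CPM in the WT libraries, against 31.86, 33.78 and 43.97 in KO. Its highest and its lowest library were both KO, replicates 3 and 1, and the 1.38-fold range within KO exceeded that within WT. The means of 36.6 ± 3.72 (SD, n = 2) and 36.5 ± 6.51 (SD, n = 3) nearly coincided, and the log2 difference was -0.01 with an interval from -0.43 to 0.41 (limma).

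Ago4 had 9.23 and 8.11 CPM in the WT libraries, against 8.74, 7.64 and 9.22 in KO. The genotypes overlapped over most of their range, and the log2 difference was -0.02 with an interval from -0.42 to 0.38 (limma). The direction of Ago3 and of Ago4 turned when sex was added to the fit (0.0113 and 0.0051), so neither has a stable sign.

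Levels of different genes were compared per kilobase of annotated exon. Prkra had the highest level of the 10, with 11.03 to 13.9 CPM per kilobase over the 5 libraries, and Ago4 the lowest, with 1.10 to 1.33. Xpo5 followed Prkra at a median of 7.17 CPM per kilobase, then Ago2 at 6.71, Dgcr8 at 6.40 and Drosha at 5.56. Each of these 4 genes stood apart from Prkra, but among them each gene's range over the libraries overlapped that of the next. The order of neighbours is therefore not settled, while Xpo5 (6.89 to 7.90) stood apart from Drosha (4.97 to 6.29). Below them stood Ago1 at 4.49 and Dicer1 at 4.05 CPM per kilobase, whose ranges overlapped, and then Ago3 at 2.05 and Tarbp2 at 1.59, whose ranges overlapped as well. With the length of the longest coding transcript in place of all exons, a choice added after the data had been seen, Prkra stayed at the top and Ago4 at the bottom, Dgcr8 came second, Tarbp2 stood above Ago3, and Ago2 stood below Drosha and Dicer1, whose ranges it overlapped.

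Among the Argonautes Ago2 made up the largest share of the RNA per kilobase in every library, 43.4% and 44.5% in WT and 47.9%, 48.6% and 44.2% in KO. Ago1 came next, with 32.3% and 32.1% in WT and 31.2%, 29.1% and 29.2% in KO, so that its share was lower in every KO library than in both WT libraries. The mean Ago1 share was 32.2% ± 0.113 (SD, n = 2) against 29.8% ± 1.21 (SD, n = 3), a difference that an exact two-sided permutation test gave as p = 0.2 and, over the 7 ratios and shares, as 0.7. Ago3 took 12.6% to 17.8% and Ago4 7.74% to 9.55%, with overlapping genotypes. The summed level was 13.9 and 15.1 CPM per kilobase in WT and 15.2, 14.03 and 14.9 in KO (p = 0.7, exact permutation). These shares were computed after the values had been seen. Of 50-base windows, 121 occur in both Ago1 and Ago3, 1.53% of those of Ago1 counting all Argonautes, so few windows match more than 1 paralog exactly. Windows that differ by a mismatch were not counted.

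**Figure D3:**
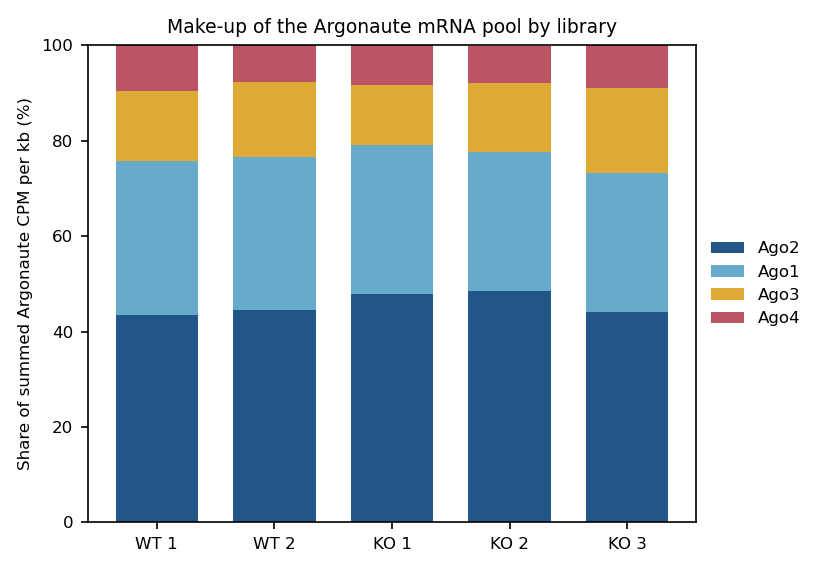
Share of each Argonaute gene in the summed Argonaute level (CPM per kilobase of exon, percent) in each of the 5 libraries. Ago2 is the largest block in every bar, at 43.4% to 48.6%, and Ago4 the smallest, at 7.74% to 9.55%.

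The members also varied between libraries of the same genotype. KO replicate 1 held the highest value of 4 members (Drosha, Tarbp2, Prkra and Ago2) and the lowest of 2 (Dicer1 and Ago3). KO replicate 2 held the lowest value of 4 members and the highest of 0. Tarbp2 was at its highest and Ago3 at its lowest in KO replicate 1, and the reverse held in KO replicate 3. The median standard deviation of log2(CPM + 1) over the 5 libraries was 0.11 for the 10 genes and 0.19 for all genes tested. Within the libraries low in Xist (1 WT, 1 KO) and those high in Xist (1 WT, 2 KO) the KO minus WT difference had the same sign for 4 of 10 members, Drosha, Dgcr8, Ago1 and Ago2. For Ago3 it was 0.36 in the former and -0.25 in the latter, and for Tarbp2 -0.21 and 0.39. With so few libraries these are values without a test. The members' mean profile of centred log2(CPM + 1) was nearly flat, from -0.05 in KO replicate 2 to 0.05 in KO replicate 1. Most like it over the 5 libraries were Tet2 (Pearson r = 0.998), Ncoa3 (0.996) and Elk4 (0.994), out of 9854 genes compared. With 5 points, 157 genes reached an r over 0.9.

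Genes that work with the machinery were compared as lists, and no member of any of them passed the threshold over all genes (limma, genotype as the single term). Of 15 cofactors of primary transcript cleavage 8 were higher and 7 lower in KO, with a median log2 difference of 0.00, and 1 had every KO library above both WT libraries, against 7.85% of all genes tested. Without KO replicate 1, 3 of the 15 were higher, and without WT replicate 1, 12 were. Mettl3, the RNA methyltransferase that marks primary transcripts, had 26.1 and 23.6 CPM in the WT libraries, against 24.8, 22.6 and 20.4 in KO (log2 difference -0.13). Erh, a small protein that binds Dgcr8, had a log2 difference of 0.16 and Hnrnpa2b1, a reader of marked transcripts, 0.14, each with overlapping genotypes.

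Of the 5 genes of the Ran cycle, which powers export by exportin 5, 4 had a higher fitted level in KO. Ran itself, the small GTPase, had 69.5 and 63.4 CPM in the WT libraries, against 131.5, 126.1 and 58.4 in KO. KO replicates 1 and 2 stood well above both WT libraries and KO replicate 3 below both, and the log2 difference was 0.57 (standard error 0.34), with an interval from -0.25 to 1.39 (limma). Ranbp1, a Ran-binding protein, was likewise highest in KO replicates 1 and 2, with 96.3 and 90.8 CPM in the WT libraries, against 129.8, 118.7 and 90.8 in KO, where KO replicate 3 lay between the WT libraries, and Rangap1 had a log2 difference of 0.09.

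The chaperones that load duplexes into Argonaute had 8 of 10 members higher, with a median of 0.06. In 2 the lowest KO value exceeded the highest WT value, a count too small to read against the 7.85% of all genes tested that did so. Cdc37, an Hsp90 co-chaperone, had 61.3 and 57.6 CPM in the WT libraries, against 105.6, 89.3 and 51.1 in KO, again with KO replicate 3 apart from the other KO libraries. Hsp90aa1 had a log2 difference of 0.16 and Ahsa1 of 0.12.

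Among 12 partners of Argonaute in silencing 9 were higher, with a median of 0.05. In 2, Mov10 and Tnrc6b, the lowest KO library exceeded the higher WT library, too few to read against 7.85% of all genes tested. One was Mov10, an RNA helicase found with Argonaute, with 15.4 and 16.2 CPM in the WT libraries, against 30.4, 24.5 and 17.4 in KO (log2 difference 0.55, standard error 0.23, adjusted p = 1.0, limma). The other was Tnrc6b, a GW182 protein that links Argonaute to deadenylation, with 106.5 and 113.2 CPM in the WT libraries, against 147.2, 122.4 and 125.6 in KO (log2 difference 0.26). Fmr1, the fragile X RNA-binding protein, had a log2 difference of -0.21, with KO replicate 3 between the WT libraries. The other 2 GW182 genes, Tnrc6a and Tnrc6c, overlapped between genotypes.

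The list of precursor tailing and Lin28 genes, which also holds Trim71, gave 2 higher and 5 lower of 7 measured, with a median of -0.05. The 2 higher were Tut1 (log2 difference 0.07) and Trim71 (0.06), each with overlapping genotypes. Zcchc11 (Tut4) and Zcchc6 (Tut7), the uridylyl transferases that mark let-7 precursors for Dis3l2, had log2 differences of 0.00 and -0.06, the first counted among the lower by a trace. Papd7, a nucleotidyl transferase, was the member with the smallest p, with 28.6 and 25.5 CPM in the WT libraries, against 24.8, 24.1 and 22.2 in KO (log2 difference -0.18, adjusted p = 1.0, limma). Each KO library lay below both WT libraries, as in 6.98% of all genes tested. Papd5 had a log2 difference of -0.11. Lin28a and Lin28b, which direct the transferases to let-7 precursors, had at most 1 and 2 reads in any library, under the floor of 3 reads, so no fold is given for either.

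Of 11 small RNA turnover genes 8 were higher, with a median of 0.02 and overlapping genotypes in all 11. Zswim8, the ubiquitin ligase adaptor of target-directed microRNA decay, had 68.4 and 65.6 CPM in the WT libraries, against 84.1, 94.9 and 66.8 in KO (log2 difference 0.27). Tsnax had a log2 difference of -0.12, and the ribonuclease gene Zc3h12a stayed at 0.33 to 1.37 CPM. The 8 relatives with double-stranded RNA binding domains or partners, such as Stau2, Adar and Ilf2, had log2 differences between -0.06 and 0.09. The PIWI clade Argonautes, known from germ cells, were below the filter, with Piwil1 and Piwil4 at no more than 1 read in a library and Piwil2 at no more than 10.

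**Figure D4:**
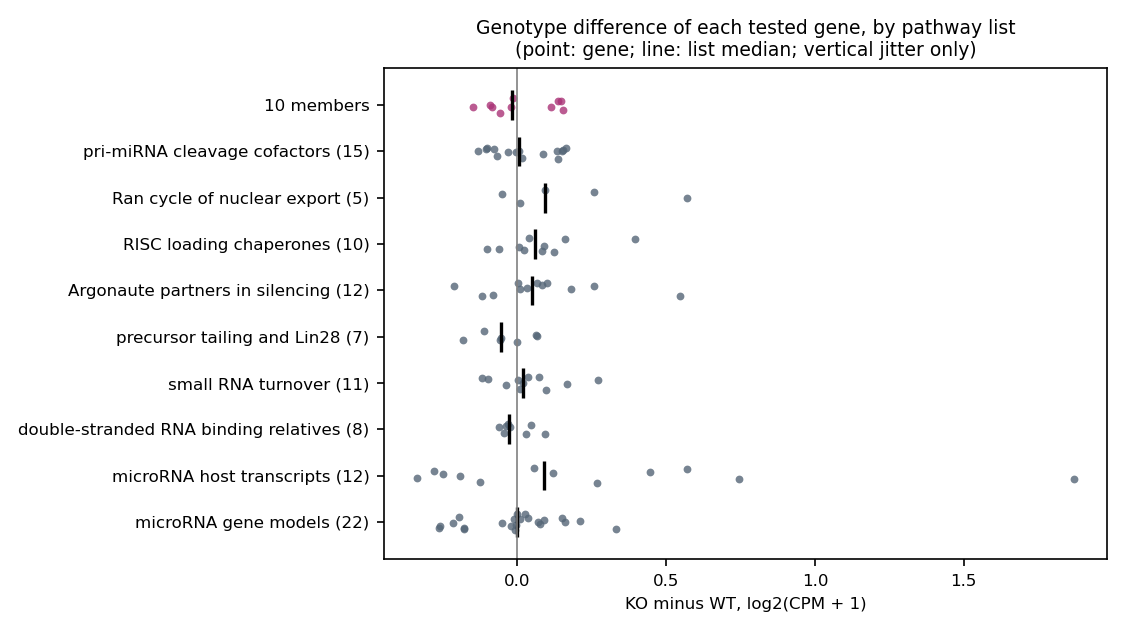
Difference between KO and WT on the log2(CPM + 1) scale for each tested gene of the 10 members and of 9 lists of related genes, with the number tested in brackets; each point is a gene and the black line the list median. The members lie between -0.15 and 0.15, and the point farthest to the right, at 1.87, is H19 among the host transcripts.

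The primary transcripts on which the machinery acts could be followed only in part. Of 12 host transcripts measured 7 were higher and 5 lower in KO, with a median of 0.09. H19, the imprinted host of miR-675, had 301 and 1089 CPM in the WT libraries, against 1285, 3314 and 2165 in KO. Its log2 difference was 1.87, with an interval from 0.46 to 3.28 (unadjusted p = 0.0167, adjusted p = 1.0, limma). Rian and Mirg, hosts in the imprinted Dlk1 domain, had log2 differences of 0.75 and 0.57 with overlapping genotypes. Of 1185 microRNA gene models 456 had a value above 0 in some library and 22, or 1.86%, passed the filter, of which 10 were higher and 12 lower. These models took 0.00761% to 0.00827% of the summed values of a library. They do not measure mature microRNAs, which are shorter than the reads.

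The 3 microRNA gene models with the smallest p were Mirlet7a-1, Mir7-1 and Mirlet7f-1, none of which passed. Their 5' arms are shown because the models were named by that rank, and the let-7 precursors among them are known Dis3l2 substrates. All were found in RefSeq's GRCm38.p6 set and are written 5' to 3' with the seed, bases 2 to 8, in capitals. The let-7 arms share their seed and miR-7a does not.
mmu-let-7a-5p: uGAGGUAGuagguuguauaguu
mmu-let-7f-5p: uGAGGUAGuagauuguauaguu
mmu-miR-7a-5p: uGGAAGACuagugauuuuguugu
Mirlet7a-1 (chromosome 13, 48538179 to 48538272, minus strand) showed 0.42 and 0.60 CPM in the WT libraries, against 1.04, 0.81 and 0.85 in KO. Its log2 difference was 0.33, which the 1 added to CPM shrinks at such levels. The mean was 0.51 CPM in WT and 0.90 in KO. The KO libraries were all above the WT libraries, on counts of 9 to 49 reads. This held for 2 of the 22 tested models and for 7.85% of all genes tested. Mirlet7f-1 (chromosome 13, 48537829 to 48537917, minus strand) showed 0.51 and 0.67 CPM in the WT libraries, against 0.41, 0.47 and 0.28 in KO, a log2 difference of -0.20. Its KO libraries were all below the WT libraries, as in 2 of the 22 models and 6.98% of all genes tested. Both let-7 loci lie on exons of the transcript 6720427I07Rik, and how the counting divided such reads is not stated. Mir7-1 (chromosome 13, 58392779 to 58392886, minus strand), within Hnrnpk, had 1.02 and 0.74 CPM in the WT libraries, against 0.47, 0.41 and 0.85 in KO, where the genotypes overlapped.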

How the data were processed

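Reads of 5 total RNA libraries (2 WT, 3 KO) were processed with HISAT2 2.1.0, featureCounts and edgeR 3.20.1 on mm10, per the submitters' processing notes. The sources used here state neither the annotation nor how strand and multiply matching reads were handled. The authors deposited 1 table with a signal per gene and library, in CPM scaled to an effective library size and given to 2 decimals, beside their log2 fold change, a likelihood ratio score, and a p-value and FDR, all used here as the authors' deposited values. The value of 1 read was found from the steps of low values (tolerance 0.0055 CPM). Of the values under 100 CPM, 99.9777% to 100% in a column were whole multiples of that step within the tolerance. Not every column met the rule set for a count test, so none was run. The planned replacement was limma 3.58.1 in R 4.3.3 with trend on log2(CPM + 1) and genotype as the 1 term. It took genes reaching 0.5 CPM in 2 or more libraries (14884), two-sided, Benjamini-Hochberg, threshold 0.05. The fit was tested on simulated data. Single ratios were compared by exact permutation over the 10 splits. Intervals on shares of reads and floors on reads cover counting error only, while the limma intervals rest on the spread between libraries.

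The members and lists were chosen with earlier results of these data known. All members were named, and up to 3 genes of each list with the smallest p, plus the 3 genes outside the members most like their mean profile among genes averaging at least 5 CPM; others named were chosen after their values were seen. Lengths and coordinates come from GENCODE M21 (GRCm38), matched on the identifier without its version, which covered 98.8% of rows; sequences come from RefSeq. Alternatives changed the scaling, pseudocount, filter, trend, libraries, replicate block and sex term.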

Additional observations from a re-analysis of the deposited data

How the results depend on the processing

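No member passed the threshold under any of the 14 alternatives, and the smallest adjusted p was 0.2717 (limma, Tarbp2 with a replicate block). The sign held in 88 of 90 fits with other settings and in 44 of 50 with a library left out. These fits are not all separate checks. Changing the filter or the trend leaves a gene's fitted difference as it was, so those signs could not turn. The replicate block repeats the differences without KO replicate 3. With a sex term the log2 difference was 0.0113 for Ago3 and 0.0051 for Ago4. Leaving out libraries gave -0.1312 to 0.0162 for Xpo5, -0.1507 to 0.0876 for Ago3 and -0.1053 to 0.0620 for Ago4. Over all genes, 0 passed the threshold with median-of-ratios size factors, a pseudocount of 5, no filter, a sex term or no trend, and 0 to 8 with a library left out. With a replicate block it was 390 (339 higher), 0 of them members. Dis3l2 then passed (adjusted p = 0.0278, limma), as did 1 gene each of 3 lists: Ran (log2 difference 0.946, adjusted p = 0.0213), Cdc37 (0.70, 0.0342) and H19 (1.85, 0.0213). KO replicate 3 has no WT partner, so the block's differences are those without it. The labels do not say what the numbers share. Same-numbered libraries deviated together (r = 0.41 and 0.54), but the deviations of 2 WT libraries mirror each other, so the pairs are not independent and no pairing was drawn from them. With values rescaled without mitochondrial rows and Rn7sk the median of all genes was -0.05, that of the members -0.0839, of the chaperones -0.0103, of the silencing partners -0.0209 and of the turnover genes -0.0519. Medians with a library left out ran from -0.0643 to 0.0411 for the members and from -0.1502 to 0.1168 for cofactors. Those of the Ran cycle ran from 0.0026 to 0.1829 and those of the tailing and Lin28 list from -0.1137 to -0.0025. For silencing partners the range was -0.0066 to 0.1297 and for turnover genes -0.0419 to 0.0935. It was -0.0557 to 0.0873 for double-stranded RNA binding relatives, -0.1556 to 0.1838 for host transcripts and -0.0734 to 0.0108 for gene models. The Tarbp2 to Prkra difference ran from -0.011 to 0.030. The number of members whose genotypes did not overlap was 0 (15.1% of all genes) with median-of-ratios factors and 2 (16.3%) with rescaled values. With fewer libraries such gaps are commoner: 4 members (39.8% of all genes) without WT replicate 1, 5 (41.8%) without WT replicate 2, 2 (30.7%) without KO replicate 1, 1 (20.6%) without KO replicate 2 and 7 (41.5%) without KO replicate 3. Tarbp2, at 130 reads in its shallowest library, is limited most by depth. The causes were not tested.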

Other observations

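The precursor loci Mirlet7a-1 and Mirlet7f-1 lie on 1 annotated transcript, 6720427I07Rik, 261 bases apart, and were compared with each other after their values had been seen. Mirlet7f-1 had 11 of the 20 reads of the pair in WT replicate 1 and 19 of 36 in WT replicate 2. In KO replicates 1, 2 and 3 it had 19 of 68, 15 of 41 and 6 of 24. Its share was 55.0% (exact Clopper-Pearson interval 31.5% to 76.9%) and 52.8% (35.5% to 69.6%) in WT. In KO it was 27.9% (17.7% to 40.1%), 36.6% (22.1% to 53.1%) and 25% (9.77% to 46.7%). The KO shares were all below the WT shares, and the intervals, which cover counting error at 95% only, overlap. Since the pair was chosen because its loci stood on opposite sides of WT in KO, the shares had to separate and no test is given. The pair was singled out from 22 tested microRNA gene models. The transcript that holds both had 51.4 and 53.9 CPM in the WT libraries, against 39.2, 51.0 and 58.4 in KO, with overlapping genotypes. Both loci lie on its exons in GENCODE M21, so how the authors' counting divided such reads bears on these values and was not tested. Of 11 let-7 gene models 9 had a read in some library, and Mirlet7d and Mirlet7i, which also overlap host exons, had 0 in all 5. Mirlet7c-2, below the filter and on an exon of Lncppara, had 0.42 and 0.35 CPM in WT, against 0.15, 0.09 and 0.24 in KO. Its KO libraries were all below the WT libraries, on 3 to 10 reads, as in 6.98% of all genes tested. The remaining models with reads overlapped between genotypes.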
